A study of Mus musculus with 2 samples.

Results

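The mRNAs of 53 translation initiation factor genes were followed in total RNA of mouse erythroblasts, which are red cell precursors that still have a nucleus. The genes were taken by name: protein-coding genes whose symbol starts with Eif1 to Eif6, leaving out Eif2ak1 and Eif2s3y. They are 53 of 42462 annotated genes in the tables, of which 21461 are nuclear protein-coding genes. The labels give 1 group, without genetic change or treatment, of 2 biological replicates: primary erythroblasts of adult male C57BL/6J mice aged 5 to 6 weeks. The cells were isolated from bone marrow, and 100 ng of RNA depleted of ribosomal RNA went into each ScriptSeq library. The labelled size range is 200 to 764 in replicate 1 and 138 to 1000 in replicate 2, without a unit. Both biosamples stand under 1 donor record, and part of their spread may be technical. As there is a single group, no conditions are contrasted and nothing is tested. The questions are how much of each factor's mRNA the cells held, which of several related genes carried most of it, and how far the replicates matched.

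Initiation brings a small ribosomal subunit to the start codon of an mRNA. The factor eIF2 carries the initiator tRNA, eIF3 binds the small subunit, and eIF4E, eIF4G and the helicase eIF4A prepare the capped mRNA. The factors eIF1, eIF1A and eIF5 act in start codon selection, eIF2B recharges eIF2 with GTP, and eIF5B joins the large subunit. In red cell precursors, where globin mRNA dominates, phosphorylation of eIF2 couples protein synthesis to heme supply.

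Replicate 1 held 37312632 expected counts, of which 122129 were of initiation factor genes, and replicate 2 held 22464752, of which 68874 were of these genes. Nuclear protein-coding genes held 11.3% of TPM in replicate 1 and 6.89% in replicate 2. Levels are therefore given as coding-scaled TPM, which is TPM divided by the summed TPM of all nuclear protein-coding genes in that library, times 1000000. Erythroblast markers were detected for 10 of 10 genes and held 40.4% and 34.6% of coding-scaled TPM in replicates 1 and 2. Neutrophil markers were detected for 8 of 8 genes at 1.98% and 1.94%, and macrophage markers for 6 of 6 at 0.0225% and 0.0203%. Of megakaryocyte markers 2 of 5 were detected, and of B and T cell markers 0 of 5. The part of these other cells in the levels below was not tested, and in bulk RNA fewer cells of a type and less RNA per cell cannot be told apart.

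The coding sequences show how alike the related factors are. The first set is the DEAD-box motif of the 3 eIF4A helicases, shown because their mRNA levels are compared below. Capitals mark the 4 codons of the motif. Each line, like those that follow, is coding sequence of a GENCODE release M21 transcript on GRCm38, 5′ to 3′ on the gene's strand. Between Eif4a1 and Eif4a2, 5 of 48 bases of this window differed, against 11 of 48 between Eif4a1 and Eif4a3. Over all aligned coding bases, 78.2% were identical between Eif4a1 and Eif4a2, and 67.9% between Eif4a1 and Eif4a3.
Eif4a1: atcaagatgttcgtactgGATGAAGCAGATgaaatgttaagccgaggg
Eif4a2: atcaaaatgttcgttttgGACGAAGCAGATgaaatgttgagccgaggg
Eif4a3: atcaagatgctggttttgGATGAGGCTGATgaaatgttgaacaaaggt

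The second set surrounds codon 50 of the eIF5A genes, in capitals, whose lysine becomes hypusine, a modification that eIF5A needs to act. Of the 51 bases of the window 7 differed between Eif5a and Eif5a2, and 0 of the capitals.
Eif5a: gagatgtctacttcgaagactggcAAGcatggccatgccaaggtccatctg
Eif5a2: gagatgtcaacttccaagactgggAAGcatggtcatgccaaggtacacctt

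The third set holds the codons of the eIF4E-binding motif of the 4E-BP repressors, in capitals. In this window 14 of 57 bases differed between Eif4ebp1 and Eif4ebp2, of which 3 lay in the motif.
Eif4ebp1: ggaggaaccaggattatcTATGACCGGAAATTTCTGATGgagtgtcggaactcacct
Eif4ebp2: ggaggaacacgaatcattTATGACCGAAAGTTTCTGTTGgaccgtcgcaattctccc

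A further pair of windows marks a regulated site and an unusual start. In Eif2s1 the capitals are codon 52, counted from the initiator methionine, the serine that the eIF2 kinases phosphorylate. In Eif4g2 they are the annotated GTG start codon, with which the longest complete coding sequence begins. The longest complete coding sequence began with ATG in 51 of the 53 genes and with GTG in Eif4g2 and Eif4g3.
Eif2s1: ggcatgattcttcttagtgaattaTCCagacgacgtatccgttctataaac
Eif4g2: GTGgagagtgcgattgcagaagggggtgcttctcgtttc

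Most initiation factor mRNAs were present, at levels that spread 342-fold from Eif2ak4 to Eif5. Detection, defined as 1 TPM or more in each library, was reached by 38 of the 53 genes, against 20.3% of nuclear protein-coding genes. Of the 15 others, 13 had counts in both libraries, and 51 genes in all reached 1 coding-scaled TPM. The median level was 29.1 coding-scaled TPM in replicate 1 and 28.3 in replicate 2. The median gene stood at percentile 77.2 among 12895 protein-coding genes with a TPM above 0. Against only protein-coding genes at or above the detection limit its percentile was 32.6. The 15 initiation factor genes under that limit were kept in this median, so the 2 sides were filtered unlike. Together the genes held 0.366% and 0.432% of coding-scaled TPM in replicates 1 and 2.

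**Figure D1:**
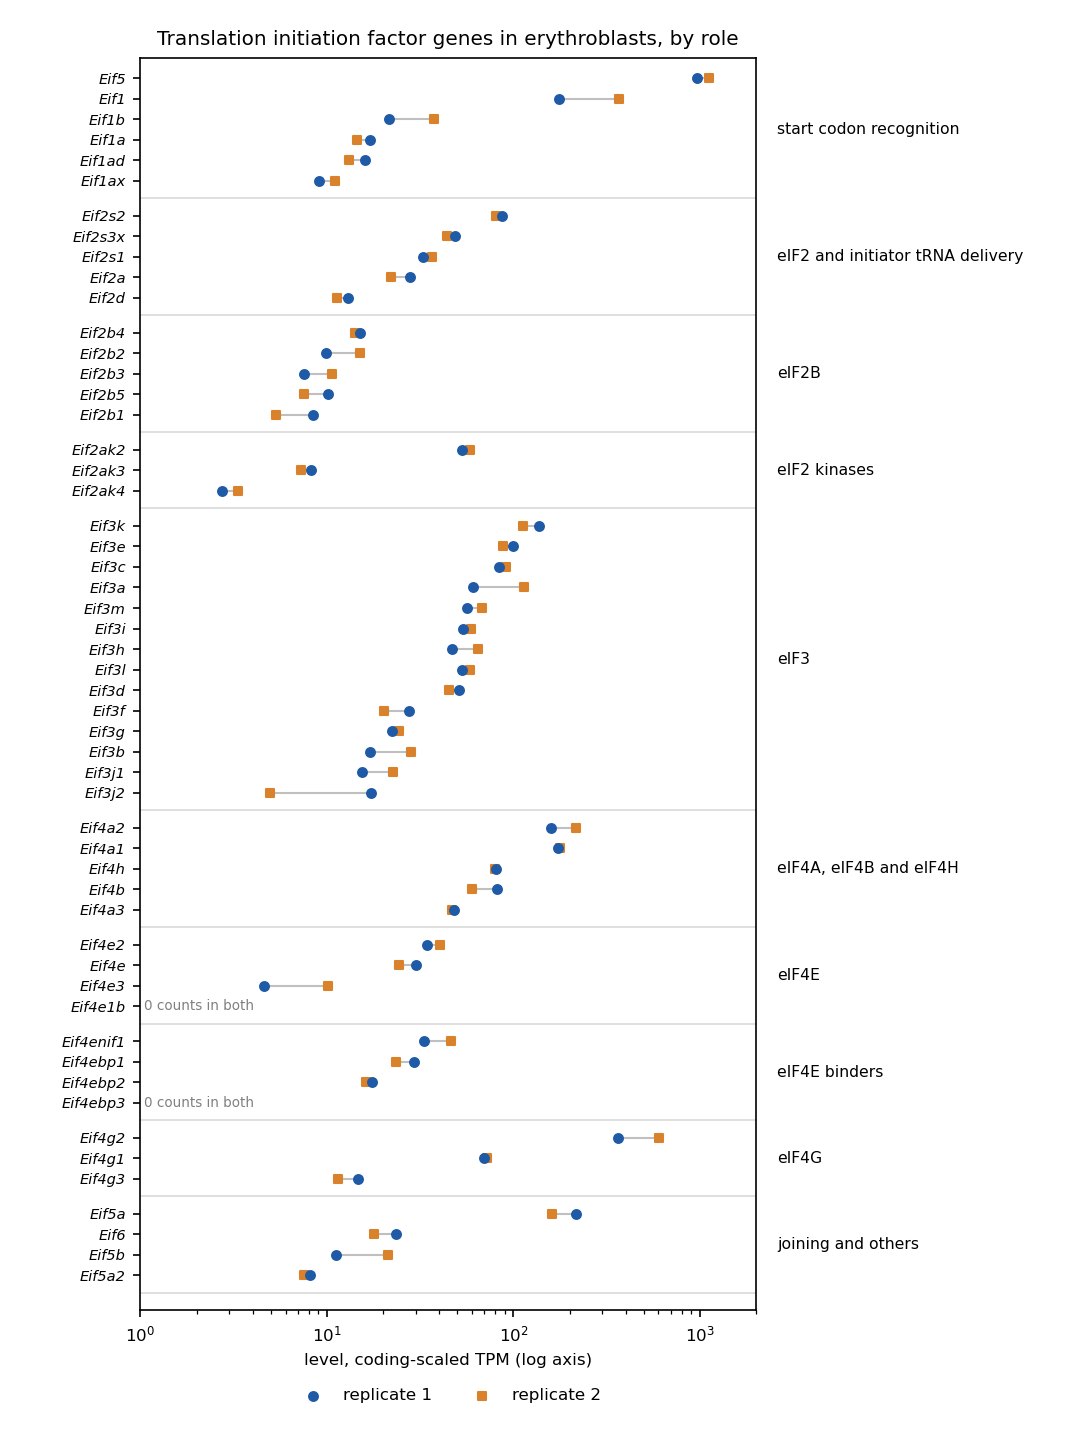
Level of each initiation factor gene in coding-scaled TPM (log axis), with a circle for replicate 1 and a square for replicate 2, grouped by role. Eif5 stands apart at 961 and 1125 coding-scaled TPM, and Eif4e1b and Eif4ebp3 had 0 counts in both libraries.

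Among factors of start codon selection, Eif5 was the most abundant initiation factor mRNA. Eif5 encodes the protein that makes eIF2 hydrolyse its GTP, and lies on chromosome 12 (chr12:111538016-111546752, plus strand). It had 961 coding-scaled TPM in replicate 1 and 1125 in replicate 2, from 44514 and 25388 counts. It ranked 95 among protein-coding genes by mean level, the only initiation factor gene within the first 100. Its rank was 104 in replicate 1 and 92 in replicate 2. Its level was 2.64-fold and 1.87-fold that of Eif4g2, the next gene in the order, in replicates 1 and 2. It was 29.4-fold and 30.8-fold that of Eif2s1, the alpha subunit of eIF2.

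Eif1, which holds the scanning complex open until the start codon is met, had 176 coding-scaled TPM in replicate 1 and 367 in replicate 2. Its relative Eif1b had 21.6 and 37.7. Both genes were higher in replicate 2, while Eif1 stayed 8.14-fold and 9.73-fold above Eif1b over all transcripts. The eIF1A genes were low: Eif1a had 17.0 and 14.5 coding-scaled TPM, and the X-linked Eif1ax had 9.06 and 11.0. Eif1ad, named for an eIF1A domain, had 15.99 and 13.2. The group median was 22.7 coding-scaled TPM, so the abundance of Eif5 and Eif1 was not shared by the other 4 genes.

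The 3 subunits of eIF2 were detected, at unequal levels. The beta subunit gene Eif2s2 had 86.7 coding-scaled TPM in replicate 1 and 80.5 in replicate 2. The X-linked gamma subunit gene Eif2s3x had 48.6 and 44.2, and the alpha subunit gene Eif2s1 had 32.7 and 36.5. This order held in both libraries. Eif2s3y, the Y-linked copy of the gamma subunit gene and not a member, had 109 and 128 coding-scaled TPM. Eif2a and Eif2d, which can bind initiator tRNA outside the eIF2 complex, had 27.8 and 22.0, and 13.0 and 11.3.

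The eIF2B genes were the lowest complex, with a median of 9.07 coding-scaled TPM over 5 genes and only Eif2b2 at the detection limit in both libraries. Eif2b5, the catalytic subunit gene, had 10.1 coding-scaled TPM in replicate 1 and 7.54 in replicate 2. The level of Eif2s1 was 3.23-fold and 4.85-fold that of Eif2b5. By mean level the 5 eIF2B genes lay between 6.90 for Eif2b1 and 14.6 coding-scaled TPM for Eif2b4, and Eif2b3 had 7.55 and 10.6 in replicates 1 and 2. The level of Eif2b4 rests on transcripts with no match in release M21, which held 100% and 58.3% of its TPM. Over its transcripts annotated as protein-coding it had 0 and 5.95 coding-scaled TPM, a mean below those of the other 4 genes on that scale. They were measured from 77 to 422 counts per gene and library.

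The 3 eIF2 kinase genes among the 53 all reached 1 coding-scaled TPM in both libraries. Only Eif2ak2 reached the detection limit of 1 TPM in both. It encodes PKR, the kinase that senses double-stranded RNA, and had 52.9 coding-scaled TPM in replicate 1 and 58.6 in replicate 2. Eif2ak3, which encodes the endoplasmic reticulum stress kinase PERK, had 8.26 and 7.25. Eif2ak4, which encodes the amino acid sensor GCN2, had 2.75 and 3.34, the lowest level of a gene with counts. The heme-regulated kinase gene Eif2ak1 is outside the 53 genes and had 873 and 785 coding-scaled TPM. Of the genes that reverse this phosphorylation, the phosphatase subunit gene Ppp1r15a had 1598 and 1426, and Ppp1r15b had 76.4 and 88.5.

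The subunits of eIF3 were mostly of middling abundance, with 13 of 14 genes detected and a group median of 55.7 coding-scaled TPM. Eif3k had the highest level, at 138 coding-scaled TPM in replicate 1 and 113 in replicate 2. Eif3e had 99.0 and 88.5, and Eif3c had 83.3 and 91.2. Eif3a, the large scaffold subunit, had 60.9 and 114, so its place in the order differed between the libraries. Eif3m, Eif3i, Eif3h, Eif3l and Eif3d lay between 45.0 and 67.6 in either library.

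At the lower end of eIF3, Eif3f had 27.5 coding-scaled TPM in replicate 1 and 20.3 in replicate 2, and Eif3g had 22.5 and 24.5. Eif3b, part of the core of the complex with Eif3a, had 17.0 and 28.3. The SD of the log2 level over the 14 genes was 1.04. The highest mean level was 11.3-fold the lowest. Without Eif3j1 and Eif3j2 these values were 0.83 and 5.53-fold over 12 genes.

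The j subunit of eIF3 is encoded by a pair of nearly identical genes. The shorter coding sequence, of Eif3j1, matched that of Eif3j2 at 783 of 783 aligned bases. Eif3j1 had 15.4 coding-scaled TPM in replicate 1 and 22.6 in replicate 2, and Eif3j2 had 17.1 and 4.93. By expected counts Eif3j2 took 32.1% of the pair in replicate 1 and 8.70% in replicate 2. The summed counts of the pair, 1778 and 983, gave a log2 ratio of replicate 1 over replicate 2 of -0.02 (95% interval -0.14 to 0.09). The split between the pair is uncertain, since reads within the shared sequence fit both genes. It differed between the libraries while the sum did not differ beyond counting error.

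All 5 genes of the helicase group passed the detection limit, and their median level was 79.9 coding-scaled TPM. Eif4a1 had 173 coding-scaled TPM in replicate 1 and 178 in replicate 2, and Eif4a2 had 159 and 218. Eif4a3, which works in the exon junction complex, had 48.0 and 46.7. The cofactors of the helicase, Eif4h and Eif4b, had 80.4 and 79.3, and 81.8 and 60.3. Eif4a1 shares reads with a processed pseudogene: the posterior SD of its count was 48.7 in replicate 1, the same as that of Eif4a-ps4, which held 1260 counts there and 443 in replicate 2. The pseudogene stood at 80.6 and 53.5 coding-scaled TPM, and how the reads divide between them is uncertain.

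The cap-binding protein gene Eif4e was below Eif4a1 and Eif4g1 and above Eif4g3 in both libraries. Eif4e had 30.0 coding-scaled TPM in replicate 1 and 24.5 in replicate 2, and the related Eif4e2, often called 4EHP, had 34.5 and 40.6. Eif4a1 stood 5.75-fold and 7.27-fold above Eif4e, and Eif4g1 stood 2.31-fold and 2.94-fold above it. Eif4e3 had 4.62 and 10.2 coding-scaled TPM. Eif4e1b, known from oocytes, had 0 counts in both libraries, which allows up to 0.0804 and 0.134 CPM (counts per 1000000) in replicates 1 and 2.

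Of the proteins that bind eIF4E, the repressor gene Eif4ebp1 was close to Eif4e in level in both libraries. Eif4ebp1 had 29.1 coding-scaled TPM in replicate 1 and 23.4 in replicate 2, which was 0.970 and 0.953 of the level of Eif4e. Eif4ebp2 had 17.4 and 16.2, and the transporter gene Eif4enif1 had 33.3 and 46.4. Eif4ebp3 had 0 counts in both libraries, with the same limits as Eif4e1b. Intervals and limits on counts cover counting error only.

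The eIF4G family was led by Eif4g2, which encodes DAP5, a relative that lacks the eIF4E-binding site. Eif4g2 had 364 coding-scaled TPM in replicate 1 and 601 in replicate 2. The scaffold gene Eif4g1 had 69.3 and 72.1, and Eif4g3 had 14.7 and 11.5. Eif4g2 stood 5.24-fold and 8.34-fold above Eif4g1, which stood 4.73-fold and 6.29-fold above Eif4g3.

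Of the factors that act late, Eif5a, needed for peptide bond formation at difficult sequences, had 216 coding-scaled TPM in replicate 1 and 161 in replicate 2. Its relative Eif5a2 had 8.09 and 7.54. The joining factor gene Eif5b had 11.2 and 21.3. Eif6, which keeps large subunits from joining too early, had 23.5 and 17.8. Of the enzymes that make hypusine on eIF5A, Dohh had 41.7 and 35.2, and Dhps had 3.29 and 12.8.

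Within each library 12 pairs of related genes were compared, with levels called separate where the deposited credibility intervals of TPM did not overlap. The first gene was above the second in both libraries in 8 pairs. The widest gap was between Eif5a and Eif5a2, at 26.7-fold in replicate 1 and 21.4-fold in replicate 2, although 73.2% of their aligned coding bases were identical. Eif2ak2 stood 19.2-fold and 17.6-fold above Eif2ak4. Eif4a1 stood 3.60-fold and 3.82-fold above Eif4a3, at 67.9% identity.

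Among the pairs of repressors and cap-binding proteins, Eif4ebp1 stood 1.67-fold and 1.44-fold above Eif4ebp2, at 69.1% identity. Eif4e was 6.5-fold and 2.41-fold above Eif4e3. Eif4e was below Eif4e2 in both libraries, at 0.871 and 0.604 of its level. The remaining 3 pairs, Eif4a1 with Eif4a2, Eif1ax with Eif1a and Eif3j1 with Eif3j2, were not separate in the same direction in both libraries.

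**Figure D2:**
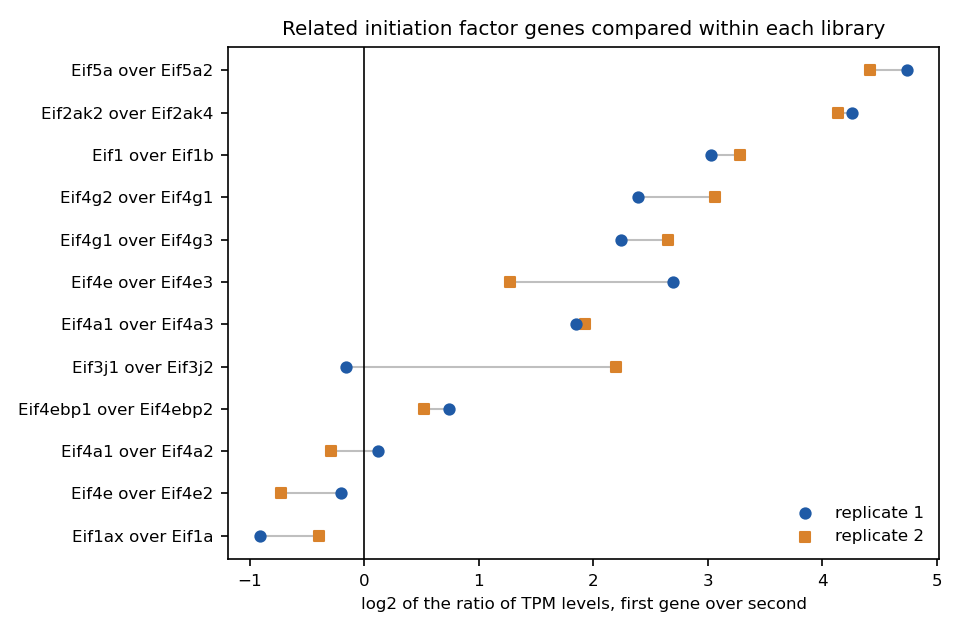
Log2 ratio of levels, first gene over second, for 12 pairs of related genes in replicate 1 (circles) and replicate 2 (squares), where 0 means equal levels. Eif5a over Eif5a2 lies farthest to the right, and the pair Eif3j1 over Eif3j2 has the widest distance between the libraries.

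Along the order of mean levels, 50 pairs of neighbours were compared in the same way. The intervals were separate in both libraries, in the same order, for 5 of them: Eif5 above Eif4g2, Eif4g2 above Eif1, Eif4a1 above Eif3k, Eif3k above Eif3e, and Eif2b1 above Eif2ak4. In 33 of the 50 the upper gene was higher in only 1 library. Most adjacent ranks therefore did not keep the same order in both libraries. The intervals cover counting and mapping error within a library, not the spread between replicates. Across the 51 genes above 0, Spearman's rho between the libraries' levels was 0.958, against 0.906 over the 4360 detected protein-coding genes. The first set includes genes under the detection limit and the second does not, so the sets are not alike. Pearson's correlation of the log2 levels was 0.958 against 0.953. The points share the length and mapping of each gene, and the rho between level and length was -0.20.

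Much of the RNA assigned to some of these genes was not of a protein-coding transcript. Of the 38 detected genes, 23 had at least 2 listed transcripts. Their leading transcript, that of highest mean share, held a median of 60.3% of the gene's TPM, against 58.4% over 3394 detected protein-coding genes with at least 2 transcripts. The same transcript led in both libraries in 15 of the 23 (65.2%), against 67.3% of the 3394. The leading transcript was annotated as protein-coding in 19 of the 23 (82.6%), against 82.8%. These shares were close to those of protein-coding genes in general. The exceptions were Eif4a2, Eif4g2, Eif2a and Eif6.

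Eif4a2 (chr16:23107444-23114136, plus strand) had the lowest protein-coding share of the 10 most abundant genes. Its protein-coding transcripts held 12.9% of its TPM in replicate 1 and 11.3% in replicate 2, a share below which lay 3.12% and 2.86% of the 3394 genes. Retained intron transcripts held 61.1% and 78.9% of its TPM, and 37.0% and 59.5% of its counts. Transcripts marked for nonsense-mediated decay held 25.99% and 9.82% of its TPM. The leading transcript by mean share, the retained intron transcript Eif4a2-218, held 19.2% and 25.3%. Another retained intron transcript, Eif4a2-206, held 8.09% and 28.6% and so led in replicate 2. The protein-coding Eif4a2-202 held 12.9% and 11.3%.

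Over protein-coding transcripts alone, Eif4a2 had 20.5 coding-scaled TPM in replicate 1 and 24.7 in replicate 2. On the same scale Eif4a1 had 137 and 142. Eif4a1 was then 6.68-fold and 5.78-fold above Eif4a2, whereas over all transcripts the pair was not separate in the same direction. The rank of Eif4a2 among the 53 genes moved to 31, against 5 over all transcripts. This comparison was added after the transcript shares were seen.

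Within Eif4a2 lie 5 annotated small nucleolar RNA genes on its strand. One of them, Snora81 (chr16:23110756-23110933), had 12466 counts of its own in replicate 1 and 19302 in replicate 2. Of the 15 retained intron transcripts of Eif4a2, 7 contain a small nucleolar RNA gene whole within an exon. These 7 held 1023 of the 1094 retained intron counts in replicate 1 and 1141 of the 1157 in replicate 2. Eif4a2-218 contains Snora81. Eif4a1 holds 3 such genes, of which Gm25835 had 1704 and 2697 counts and Gm22988 had 276 and 855. The third, Gm24029, had 0 and 9.7 counts. Gm25835 lies whole within no exon of a listed Eif4a1 transcript, so the shares that follow concern Gm22988 and Gm24029 only. The 3 transcripts of Eif4a1 that contain one took 5.22% and 6.58% of its TPM, against 51.6% and 76.4% for the 7 of Eif4a2. Whether reads of the small RNAs were counted to these transcripts was not tested.

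Eif4g2 also had a large retained intron share, by TPM more than by counts. Its retained intron transcripts held 37.5% of its TPM in replicate 1 and 67.8% in replicate 2, but 5.94% and 20.5% of its counts. The retained intron transcript Eif4g2-204 is 418 bases long and held 20.97% and 38.3% of TPM from 265 and 476 counts. The protein-coding Eif4g2-213, of 5177 bases, held 23.8% and 11.8% of TPM from 6552 and 2769 counts. Over protein-coding transcripts alone Eif4g2 had 202 and 176 coding-scaled TPM, against 364 and 601 over all, and it remained 3.46-fold and 3.27-fold above Eif4g1. A small nucleolar RNA gene, Gm23262, lies within Eif4g2 on its strand and had 2350 and 2912 counts. Unlike in Eif4a2, no listed transcript of Eif4g2 contains the small RNA gene whole within an exon.

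Eif2a and Eif6 were the other genes led by transcripts not annotated as protein-coding. In Eif2a, Eif2a-207, marked for nonsense-mediated decay, held 74.9% of TPM in replicate 1 and 66.2% in replicate 2. Over protein-coding transcripts alone Eif2a had 2.13 and 4.93 coding-scaled TPM, against 27.8 and 22.0 over all. Eif6 rested on 112 and 122 counts, and its leading Eif6-205, a processed transcript of 402 bases, held 60.3% and 0%. The protein-coding Eif6-201 held 4.58% and 37.0%. These shares rest on few counts and changed order between the libraries.

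**Figure D3:**
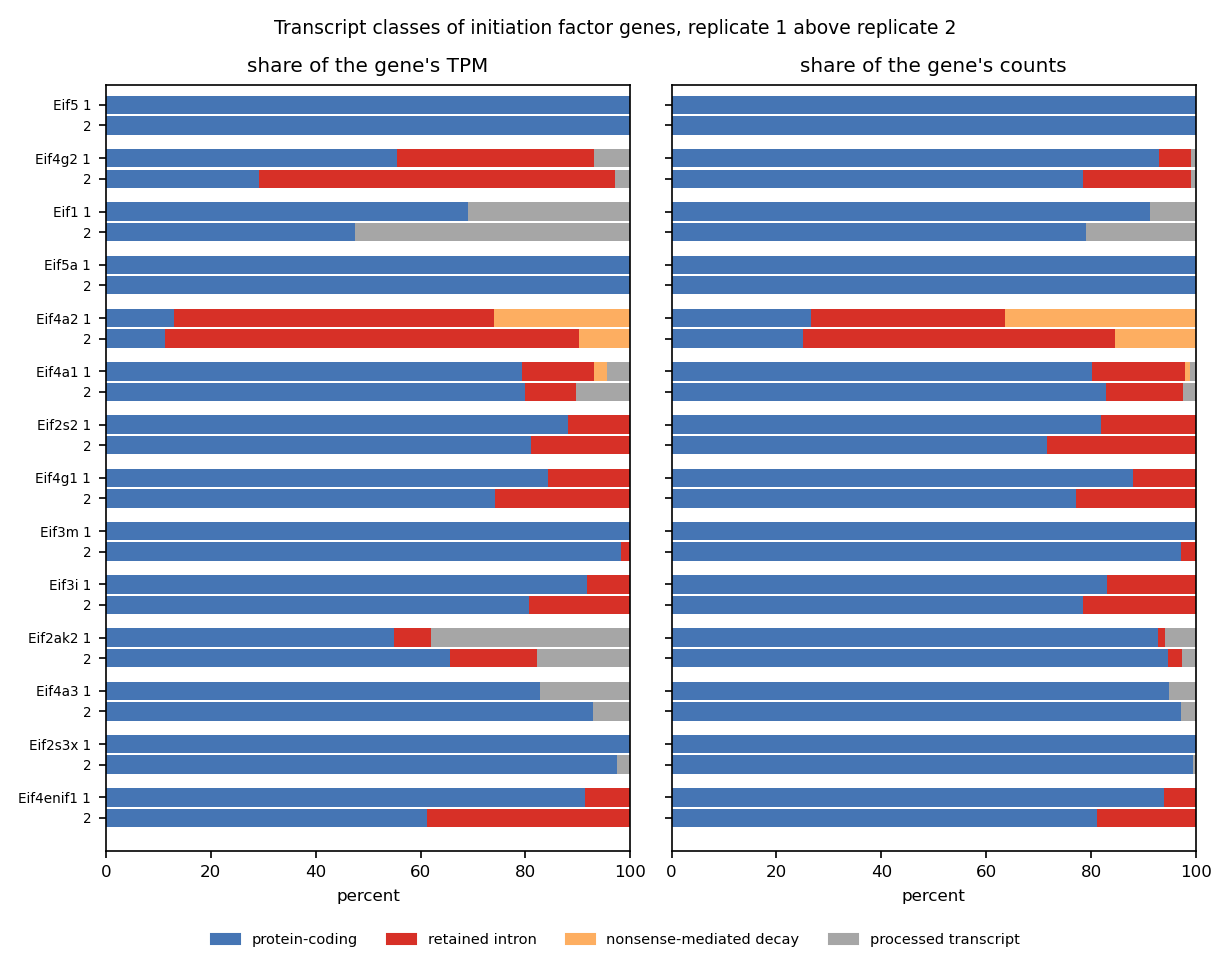
Share of each gene's TPM (left) and of its expected counts (right), in percent, by transcript class, for the 14 most abundant detected initiation factor genes with at least 2 listed transcripts, with replicate 1 above replicate 2. The retained intron share of Eif4a2 is 61.1% and 78.9% of TPM, and that of Eif4g2 is far wider by TPM than by counts.

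Retained intron transcripts had some share in 14 of the detected genes. By counts this share was higher in replicate 2 in 11 of the 14 (78.6%), against 57.2% of 1994 detected protein-coding genes with such transcripts. Its median over the 14 was 11.97% of counts in replicate 1 and 18.8% in replicate 2. Over the 1994 genes the medians were 9.23% and 10.8%. The share of total TPM held by protein-coding genes was also lower in replicate 2, and the part of RNA class makeup in this pattern was not tested.

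For Eif5 and Eif5a only protein-coding transcripts are listed, 2 and 13, so their share of 100% was fixed by the annotation. Eif5-202, of 3966 bases, held 64.8% of the TPM of Eif5 in replicate 1 and 56.4% in replicate 2, and the shorter Eif5-201, of 1898 bases, held 35.3% and 43.6%. In Eif5a, 2 transcripts of similar length changed places: Eif5a-213 held 62.9% and 21.5%, and Eif5a-210 held 35.4% and 73.1%. In Eif4g1, Eif4g1-202 held 38.3% and 2.34%, and Eif4g1-217 held 7.96% and 49.7%. These shares are estimated splits of reads over 13 listed transcripts of Eif5a and 22 of Eif4g1. Their uncertainty was not tested.

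Eif1 had both kinds of transcript. The protein-coding Eif1-201 held 47.4% of its TPM in replicate 1 and 26.8% in replicate 2, and the processed transcript Eif1-202, of 383 bases, held 22.3% and 50.1%. Over protein-coding transcripts alone Eif1 had 121 and 174 coding-scaled TPM, against 176 and 367 over all. Eif1 therefore stood higher in replicate 2 on both scales, by less on the first. Over protein-coding transcripts Eif1 was 5.62-fold and 4.63-fold above Eif1b in replicates 1 and 2. Eif4a1 was steady, with Eif4a1-213 at 79.4% and 79.9%. The kinase gene Eif2ak2 had 29.1 and 38.4 coding-scaled TPM over protein-coding transcripts, 10.5-fold and 12.05-fold above Eif2ak4.

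**Figure D4:**
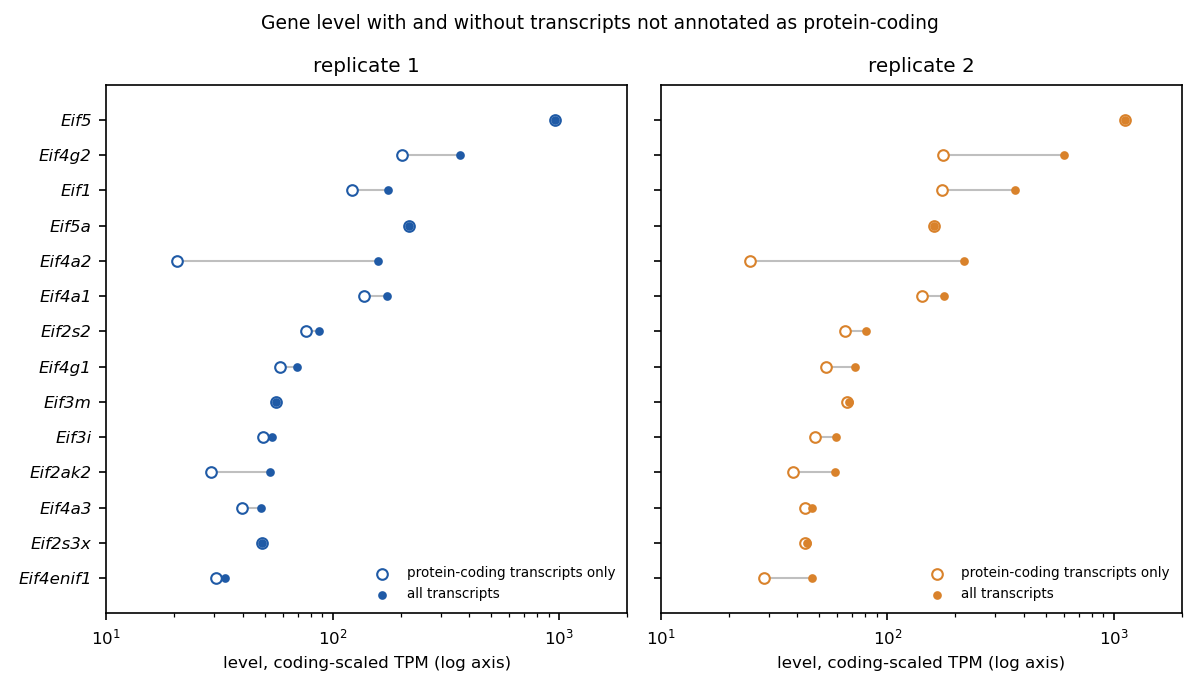
Level in coding-scaled TPM (log axis) over all transcripts (filled points) and over protein-coding transcripts only (open circles) for the same 14 genes, in replicate 1 (left) and replicate 2 (right). Eif4a2 moves to 20.5 and 24.7, below Eif4a1, while Eif5 and Eif5a, for which only protein-coding transcripts are listed, cannot move.

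The libraries were compared by expected counts with TMM scaling, for the 51 genes whose mean count reached 100. A ratio of at least 2-fold in either direction was found for 3 of the 51, against 8.54% of 7658 nuclear protein-coding genes. Eif3j2 was the 1 gene at least 2-fold higher in replicate 1, where the background was 5.62%, and Eif6 and Eif4e3 were at least 2-fold higher in replicate 2, where it was 2.93%. The median log2 ratio of replicate 1 over replicate 2 was 0.01 for the initiation factor genes and 0.04 for protein-coding genes. Within 0.5 of 0 lay 76.5% of the initiation factor genes and 70.3% of protein-coding genes. The 95% interval lay above 0 for 19 genes, below 0 for 17 and held 0 for 15. Over the 7658 protein-coding genes these counts were 2900, 2411 and 2347. In both sets the interval left out 0 for most genes.

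For Eif3j2, with 571 counts in replicate 1 and 85.5 in replicate 2, the log2 ratio was 1.87 (95% interval 1.54 to 2.22), with the limit on its split from Eif3j1 given above. For Eif4e3, with 163 and 187 counts, the log2 ratio was -1.08 (-1.39 to -0.77). For Eif6, with 112 and 122 counts, it was -1.002 (-1.38 to -0.62). By coding-scaled TPM Eif6 went the other way, at 23.5 in replicate 1 and 17.8 in replicate 2. Its effective length was 314 bases in replicate 1 and 880 in replicate 2, a mean over its transcripts that moves with their shares.

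Large genes with many counts also differed by less than 2-fold but beyond counting error. Eif3a, with 4615 counts in replicate 1 and 4420 in replicate 2, had a log2 ratio of -0.82 (95% interval -0.88 to -0.76). Eif5b, with 1127 and 1128 counts, had -0.88 (-0.9999 to -0.76). Eif4b, with 4560 and 1731 counts, had 0.52 (0.44 to 0.60). Eif5, with the most counts, had -0.07 (-0.09 to -0.05). With 1 library on each side these differences have no replicate check.

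**Figure D5:**
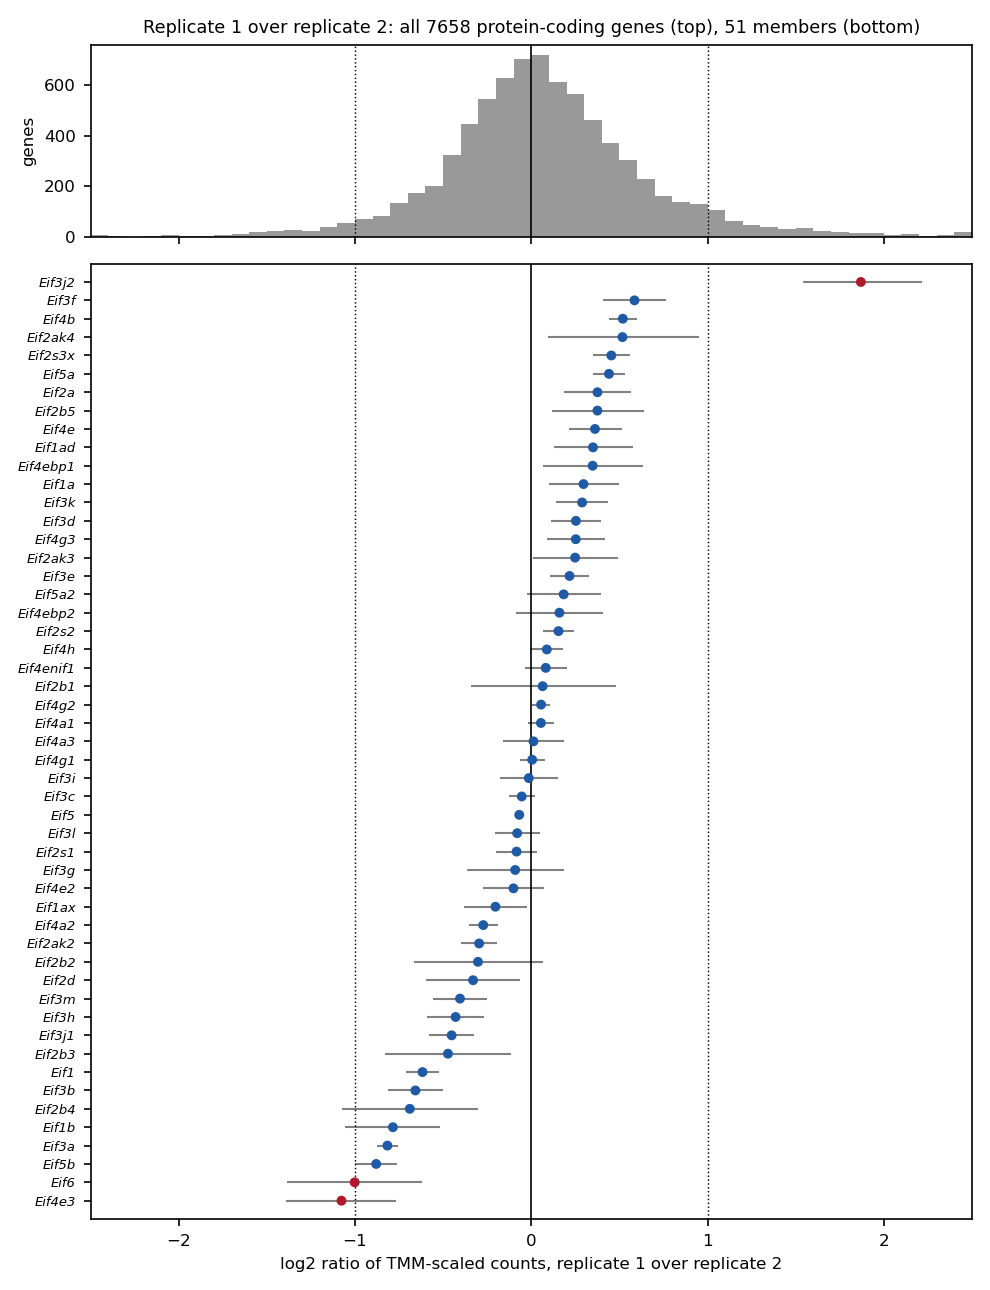
Log2 ratio of TMM-scaled counts, replicate 1 over replicate 2, as a histogram over 7658 protein-coding genes with values beyond 2.5 in the end bins (top), and per initiation factor gene with its exact 95% counting interval (bottom). Red points are at least 2-fold apart, and dotted lines mark 2-fold: Eif3j2 lies at 1.87, Eif6 at -1.002 and Eif4e3 at -1.08.

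Of a list of 32 other genes of protein synthesis and its control, 22 were detected, against 20.3% of nuclear protein-coding genes. The median level over the 32 was 39.3 coding-scaled TPM. The poly(A)-binding protein gene Pabpc1 had 4694 coding-scaled TPM in replicate 1 and 7620 in replicate 2, above the whole set of 53 initiation factor genes, which summed to 3663 and 4323. The elongation factor gene Eef1a1 had 1857 and 1598. Mknk1, a kinase of eIF4E, had 121 and 89.2, and Mtor, the kinase that controls the eIF4E repressors, had 8.17 and 5.37. Of the 28 listed genes with enough counts, 0 were at least 2-fold apart between the libraries, against 8.54% of protein-coding genes.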

How the data were processed

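The deposited gene and transcript tables of 2 libraries were used. Per the file headers, the authors' tables give expected counts (estimated counts that need not be whole), posterior means and SDs, TPM, FPKM, bounds of a credibility interval of TPM, and each transcript's percent of its gene's TPM. The assembly is mm10 per the labels, with GENCODE release 4 (M4) named in the deposited text records. Which aligner and quantification program were run is not given in the sources used here. No values were pooled.

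Of 43346 Ensembl genes, 42462 (98.0%) matched GENCODE release 21 (M21, GRCm38) by identifier without version, which gave symbols, classes and transcript sequences. Expected counts were rounded for ratios, scaled by the TMM method of edgeR 4.0.16 (R 4.3.3), and kept at a mean of at least 100. Intervals are exact Clopper-Pearson 95% intervals. They were tried only on simulated counts with counting error alone, so read assignment and spread between replicates were not covered. DESeq2 1.42.0 size factors were an alternative. Identity is over aligned coding bases of the longest complete coding sequences. Tables were handled in Python 3.11.15 with pandas 2.3.3 and numpy 2.4.6, intervals computed with scipy 1.17.1 and figures drawn with matplotlib 3.10.9.

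Any of the 53 genes could be named, and values in both libraries were given by rule for the 10 highest, those under the detection limit, 12 related pairs, the lead of each role group, those at least 2-fold apart, and those with unusual leading transcripts. The members and lists were chosen with earlier results of these data known. Small nucleolar RNA genes and levels over protein-coding transcripts were added after values were seen.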

Additional observations from a re-analysis of the deposited data

How the results depend on the processing

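No paired analysis was possible because the labels give 1 group. The count of detected genes, 38, was 51 with the limit in coding-scaled TPM, 48 at a TPM of 0.5, 39 by posterior mean, and 38 to 45 from 1 library alone. The median level, 27.3 coding-scaled TPM, was 42.8 without adult globin genes in the rescaling, 51.9 over detected genes, and 28.3 to 29.1 from 1 library. The median percentile, 77.2, was 76.4 by posterior mean and 77.4 to 78.4 from 1 library. Against only genes at or above the detection limit it was 32.6, with initiation factor genes under the limit kept. The count of genes at least 2-fold apart, 3, was 1 with library size alone (Eif3j2). By coding-scaled TPM it was 3 with Eif1 (log2 ratio -1.06) in place of Eif6. The median log2 ratio, 0.01, was 0.16 with library size alone, which moved the median of all genes to 0.18. The median leading transcript share, 60.3%, was 59.4% by posterior mean, 67.0% of counts, and 64.8% to 65.7% from 1 library. The SD of log2 level over eIF3, 1.04, was 0.83 without Eif3j1 and Eif3j2, and 0.996 to 1.24 from 1 library. The log2 ratio of Eif4a1 over Eif4a2, -0.09 over all transcripts, was 2.63 over protein-coding transcripts. Values at few counts, as in Eif6 and eIF2B, are limited by depth.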
